A study of Mus musculus with 12 samples.

Results

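The 22 SNPs described here were read in F1 mice of the cross between WSB/EiJ and MOLF/EiJ, out of 89 SNPs that the study measured over 5 crosses. They are every SNP whose deposited record names this cross. WSB/EiJ and MOLF/EiJ are inbred strains that were both derived from wild mice. The labels name no treatment and no engineered allele. The F1 animals were 4 weeks old, and liver and skeletal muscle came from 2 littermates whose tissue was combined before RNA extraction (0.3 g from each littermate, 0.6 g per tissue). For genomic DNA (gDNA), about 50 mg of either tissue from either littermate was used. Neither the sex of the animals nor the strain of the mother is named in the labels. The animals of the cross thus form 1 pool per tissue, each SNP was amplified once per template, and the intervals and the p-values of the exact tests cover counting error only.

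An F1 animal carries a chromosome set from each parent in the same nuclei, so the transcripts of both alleles meet the same transcription factors, microRNAs and RNA decay machinery. At an autosomal SNP the gDNA of such an animal holds both alleles in equal number, and its amplicons serve as the control for alleles that amplify unequally. Whether each SNP is autosomal was not checked. MicroRNAs are short RNAs that pair through their seed with sites in a messenger RNA, mostly in its 3′ UTR, and lower its level and translation. miR-1 and miR-133 are abundant in muscle and miR-122 in liver, and the study chose its amplicons around sites of these microRNAs or control sites. Which of the 22 SNPs lies in which kind of site, in which gene, and which strain carries which base were not used here. The SNPs are therefore named by their rs number and the alleles by their base.

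Each SNP was read through 1 primer pair that served gDNA, muscle cDNA and liver cDNA alike. The primers shown are those of the 5 SNPs with the largest fold in any of the comparisons below, that between the tissues included, because the results turn on these amplicons first. They are printed 5′ to 3′ in lower case, without capitals, since no position in them was singled out.

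rs36628412 forward: agccactgtaagcaatgtgcc
rs36628412 reverse: aagatggtccccttcagcttg
rs26888769 forward: agcagagaagaaatggtatgttgga
rs26888769 reverse: agcaagaccccatgcctaagt
rs27858423 forward: tgctagcagcagattcctacca
rs27858423 reverse: cacctgtccaccacacctacc
rs51877709 forward: tctcctgcctgaccttttcct
rs51877709 reverse: aaagggactcctcgcttgaaa
rs13460373 forward: gtttgatgacccgaatccctt
rs13460373 reverse: aggtgactgaggcacactgct

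The 44 primers of the 22 SNPs were 21 to 27 bases long with a median of 21, and their GC content ran from 30.8% to 61.9% with a median of 52.4%. The base changes were mostly transitions, namely 11 C/T and 7 A/G SNPs. The other 4 were the transversions rs31872413 (A/C), rs13460373 (G/T), rs36610938 (C/G) and rs39724342 (A/T).

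All 22 SNPs were read in gDNA, 12 of them in muscle and in liver mRNA, 5 in muscle alone and 5 in liver alone. That gives 56 amplicons, each sequenced in 3 runs of its pool. Because amplicons were mixed in equal molar amounts before sequencing, read numbers carry no expression level, and markers of muscle or liver could not be assessed. Summed over runs, an amplicon had 653 to 18714 allele reads with a median of 4050. The gDNA amplicons lay in pools 1 (15) and 2 (7), the muscle amplicons in pools 3 (14) and 4 (3), and the liver amplicons in pools 2 (5) and 4 (12). No SNP had 2 templates in the same pool, and what belongs to the template and what to the pool cannot be told apart.

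**Figure D1:**
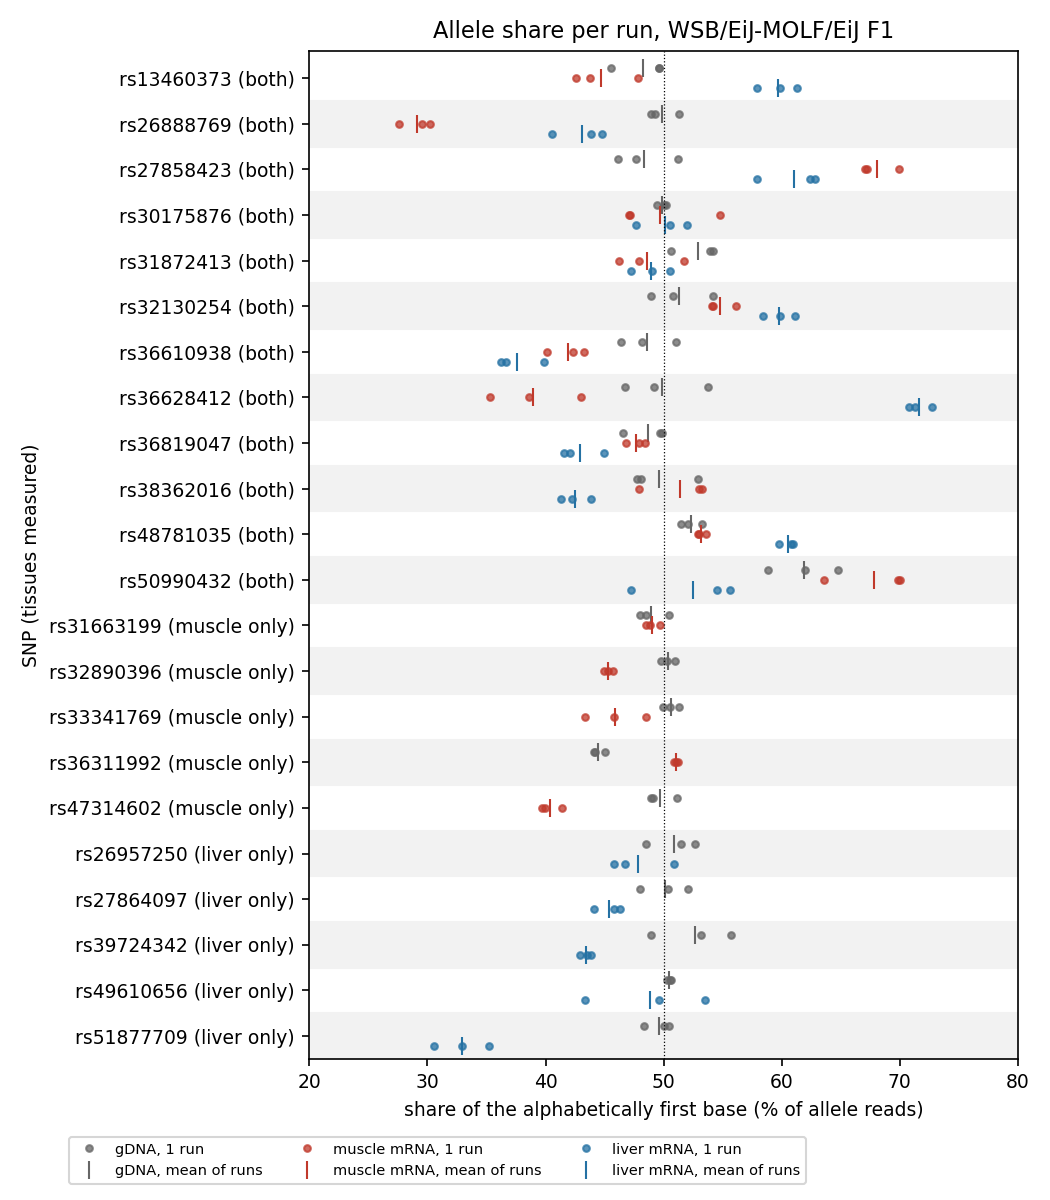
Share of allele reads (x axis, percent) held by the alphabetically first base at each of the 22 SNPs (y axis, with the tissues measured), in gDNA (grey), muscle mRNA (red) and liver mRNA (blue). Points are single runs and upright ticks are means over the 3 runs; most grey points lie near 50%, and at rs36628412 the red and blue points lie on opposite sides of them.

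Genomic DNA gave the reference ratio. The base with more reads held a median of 51.0% of gDNA reads over the 22 SNPs, and 20 of the 22 lay between 45% and 55%. By the exact binomial test against 1:1 (two-sided, Benjamini-Hochberg over all 89 SNPs, threshold 0.05), 5 of the 22 departed from an even ratio, where 24.7% of all SNPs did. A departure of at least 1.5-fold was found at 1 of the 22 (5.62% of all SNPs).

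At rs50990432 the C allele held 62.0%, 58.9% and 64.8% of gDNA reads in runs 1 to 3, a mean of 61.9% ± 2.96 (SD, n = 3 runs). Its ratio over T was 1.62-fold (95% interval 1.5 to 1.74), and the adjusted p of the exact binomial test was 1.23e-35. At rs36311992 the T allele held 54.9%, 55.8% and 55.9%, a mean of 55.5% ± 0.530 and a ratio of 1.25-fold (1.20 to 1.31). Both SNPs favoured 1 base in every run. The A allele of rs31872413 held 53.9%, 50.6% and 54.2% (1.12-fold, 1.06 to 1.19). The remaining departures were 1.12-fold at rs39724342 towards A, with run 2 at 49.0% on the other side of even, and 1.097-fold at rs48781035 towards A. At the 17 SNPs that did not pass, the gDNA ratio was at most 1.06-fold. Without run 1, rs27858423 (towards T) and rs36610938 (towards G) passed as well (adjusted p = 0.00924 and 0.000435 by the exact binomial test). The call of rs39724342 was lost without run 1 and without run 3, and with extra variance between amplicons rs50990432 and rs36311992 alone were called.

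Muscle mRNA was then set against gDNA, which asks whether the alleles differ in transcript level in the tissue of miR-1 and miR-133. The fold given from here on is the allele ratio in the first template over that in the second. It was tested with Fisher's exact test (two-sided) on reads summed over runs and adjusted over all SNPs of all crosses. Folds and directions within a run compare same-numbered runs of different pools, a numbering that was not taken to pair them. At 13 of 17 SNPs the ratio in muscle differed from gDNA, where 62.7% of all 75 SNPs measured in muscle did. Over the 17 SNPs the median shift was 1.20-fold, beside 1.16-fold over the 58 SNPs of the other crosses. A shift of at least 1.5-fold was found at 3 of the 17 (17.3% of all 75), namely rs26888769, rs27858423 and rs36628412.

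The leading SNP in muscle was rs26888769. Its G allele held 51.1%, 48.7% and 50.7% of gDNA reads and 69.8%, 70.4% and 72.5% of muscle reads in runs 1 to 3. The run values of the templates were far apart, and the ratio of G over A was 2.42-fold higher in muscle (95% interval 2.26 to 2.60, adjusted p = 1.41e-135 by Fisher's exact test).

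At rs27858423 the C allele held 51.2%, 47.7% and 46.1% of gDNA reads. In muscle it held 67.1%, 69.9% and 67.3%, above each gDNA run. The shift was 2.25-fold (2.08 to 2.44, adjusted p = 1.52e-87 by Fisher's exact test), and its interval overlapped that of rs26888769.

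At rs36628412 the G allele held 50.8%, 53.3% and 46.3% of gDNA reads and 57.0%, 64.7% and 61.4% of muscle reads. The muscle runs lay above the gDNA runs, with the widest gDNA spread of the 22 SNPs (SD 3.58 percentage points, 1681 reads). The shift was 1.58-fold (1.40 to 1.79, adjusted p = 1.42e-12 by Fisher's exact test), and it was 1.29-fold, 1.61-fold and 1.85-fold within runs 1, 2 and 3.

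Next in rank were rs47314602 and rs36610938. At rs47314602, read in muscle alone, the T allele held 48.9%, 50.9% and 51.1% of gDNA reads and 60.0%, 58.6% and 60.3% of muscle reads (1.46-fold, 1.32 to 1.62). At rs36610938 the G allele held 48.9%, 51.8% and 53.6% of gDNA reads and 59.9%, 56.8% and 57.7% of muscle reads (1.305-fold, 1.22 to 1.39). In both, all muscle runs stood above all gDNA runs.

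At rs36311992 the C allele moved from 45.1%, 44.2% and 44.1% in gDNA to 51.0%, 50.9% and 51.2% in muscle. This 1.303-fold shift (1.22 to 1.39) left the muscle reads themselves close to even, since gDNA was skewed towards T. The rest of the called SNPs in muscle were smaller, with rs50990432 at 1.28-fold (C over T), rs32890396 at 1.22-fold (G over A), rs33341769 at 1.20-fold (T over C), rs13460373 at 1.20-fold (T over G), rs31872413 at 1.16-fold (C over A), rs32130254 at 1.16-fold (A over G) and rs38362016 at 1.09-fold (C over T).

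The runs of muscle and gDNA did not overlap at 8 of the 17 SNPs, beside 56% of all 75, and all 8 were called. At the called SNPs rs13460373, rs31872413, rs32130254, rs38362016 and rs50990432 they overlapped, and at rs31872413 run 2 went the other way (0.958-fold). Without run 1 these 5 SNPs were not called (adjusted p = 0.207, 0.368, 0.0802, 0.0704 and 0.0737 by Fisher's exact test), and 8 calls were left. Without run 2 the call of rs32130254 was lost (adjusted p = 0.137 by Fisher's exact test), and without run 3 those of rs31872413, rs38362016 and rs50990432 (adjusted p = 0.268, 0.607 and 0.0704). With a quasi-binomial model over runs 5 SNPs were called: the 5 calls lost without run 1 were lost here too, and so were those of rs36628412, rs36610938 and rs33341769 (adjusted p = 0.0579, 0.0569 and 0.0788). With extra variance between amplicons 6 were called, and beside those 5 the calls of rs32890396 and rs33341769 were lost. Their adjusted p was then 0.0547 and 0.102.

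The remaining 4 SNPs did not pass in muscle. At rs48781035, the deepest amplicon with 18714 muscle reads, the A allele held 53.2%, 52.1% and 51.5% of gDNA reads and 53.6%, 53.0% and 52.9% of muscle reads. Its fold of 1.03 had a 95% interval of 0.985 to 1.08. This interval covers counting error only, so it does not exclude a shift of 1.1-fold. Tested against 1:1 in place of gDNA, the muscle reads of rs48781035 did depart towards A (0.18 on the log2 scale), as its gDNA reads had. At rs31663199 the C allele held 48.0%, 50.4% and 48.5% in gDNA and 48.8%, 49.7% and 48.6% in muscle (1.002-fold, 0.938 to 1.07). The T allele of rs36819047 stood at 53.4%, 50.3% and 50.1% in gDNA and 51.6%, 53.2% and 52.1% in muscle (1.04-fold, 0.956 to 1.14). The fourth, rs30175876, is described with its runs below.

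The same comparison with gDNA was made for mRNA of the liver, where miR-122 is abundant. Here 15 of 17 SNPs differed from gDNA, where 65.6% of all 64 SNPs measured in liver did. The median shift was 1.39-fold over the 17 SNPs and 1.15-fold over the 47 SNPs of the other crosses; the difference between crosses was not tested. At least 1.5-fold was reached at 5 of the 17 (14.1% of all 64).

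**Figure D2:**
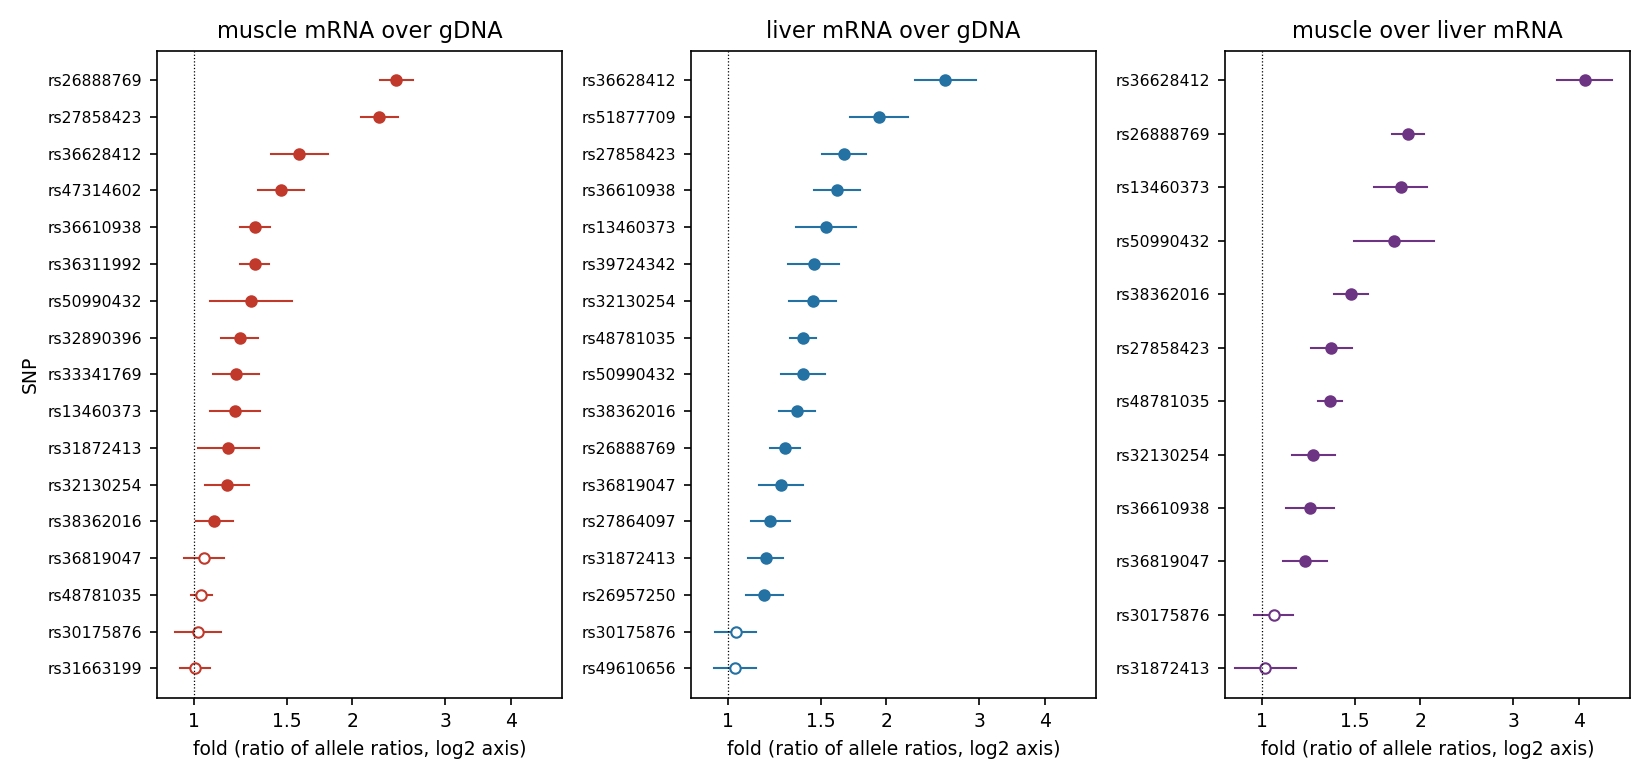
Fold between allele ratios (x axis, log2 axis; always drawn towards the base that is higher in the first template) for each SNP (y axis) in muscle mRNA over gDNA, liver mRNA over gDNA and muscle over liver mRNA. Bars are 95% intervals from counting error, filled points passed Fisher's exact test after adjustment, and open points did not; the point at 4.10-fold on the right is rs36628412.

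The largest liver shift, at rs36628412, ran against its muscle shift. The A allele held 49.2%, 46.7% and 53.7% of gDNA reads and 72.8%, 71.3% and 70.8% of liver reads. The ratio of A over G was 2.59-fold higher in liver (2.27 to 2.96, adjusted p = 5.50e-44 by Fisher's exact test).

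At rs51877709, read in liver alone, the G allele held 49.5%, 50.0% and 51.6% of gDNA reads and 64.8%, 67.0% and 69.5% of liver reads. Each liver run lay over 10 percentage points above every gDNA run. The shift was 1.94-fold (1.71 to 2.19, adjusted p = 1.77e-24 by Fisher's exact test).

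At rs27858423 the C allele, favoured in muscle, was also favoured in liver, with 62.4%, 57.9% and 62.9% of liver reads (1.66-fold over gDNA, 1.51 to 1.83). At rs36610938 the G allele, favoured in muscle too, held 63.3%, 63.7% and 60.1% of liver reads (1.61-fold, 1.46 to 1.78). These intervals overlapped each other and that of the next SNP, rs13460373. Its G allele held 49.6%, 45.5% and 49.6% of gDNA reads and 59.9%, 61.3% and 57.9% of liver reads (1.53-fold, 1.34 to 1.75), whereas muscle had shifted towards T.

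Shifts between 1.17-fold and 1.45-fold made up the other 10 calls in liver. Both rs39724342, towards T, and rs32130254, towards A, shifted by 1.45-fold. They were followed by rs48781035 (A over G, 1.39-fold), rs50990432 (T over C, 1.39-fold), rs38362016 (T over C, 1.35-fold), rs26888769 (G over A, 1.28-fold), rs36819047 (T over C, 1.26-fold), rs27864097 (T over C, 1.20-fold), rs31872413 (C over A, 1.18-fold) and rs26957250 (T over C, 1.17-fold). At rs48781035, which did not pass in muscle, the A allele held 61.0%, 59.8% and 60.8% of liver reads, above every gDNA and muscle run. At rs39724342 the direction in liver was against the A excess of gDNA, with T at 56.5%, 56.1% and 57.1% of liver reads.

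The runs of liver and gDNA did not overlap at 14 of the 17 SNPs, beside 59.4% of all 64. The exception among the called SNPs was rs26957250, which was not called without run 2 (adjusted p = 0.0518 by Fisher's exact test). All 15 called SNPs shifted in 1 direction in the 3 runs, beside 39 of the 42 called SNPs of all crosses in all their runs. The quasi-binomial model did not call rs26957250, rs27864097, rs31872413 and rs50990432 (adjusted p = 0.149, 0.0664, 0.106 and 0.0956), and extra variance between amplicons ended the calls of rs26957250, rs27864097 and rs31872413.

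In liver, rs30175876 and rs49610656 did not pass. At rs49610656 the T allele held 49.4%, 49.4% and 49.7% of gDNA reads and 50.4%, 46.5% and 56.6% of liver reads. Its liver runs lay on both sides of gDNA (1.03-fold, 0.940 to 1.13), with the widest spread of the 56 amplicons, 5.10 percentage points (SD, n = 3 runs).

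The 12 SNPs read in both tissues allowed muscle and liver mRNA to be compared directly, a comparison in which gDNA has no part. At 10 of the 12 the allele ratio differed between the tissues, where 62% of all 50 such SNPs did. The runs of the tissues did not overlap at 10 of the 12 either, beside 58% of all 50, and these were the 10 called SNPs. At least 1.5-fold was reached at 4 of the 12 (16% of all 50).

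At rs36628412 the G allele held 57.0%, 64.7% and 61.4% of muscle reads and 27.2%, 28.7% and 29.2% of liver reads. G was the more abundant allele in muscle in each run and the less abundant one in liver in each run. The ratio of G over A was 4.10-fold higher in muscle (3.64 to 4.63, adjusted p = 5.48e-122 by Fisher's exact test), and its interval lay above that of every other SNP. The fold within runs 1, 2 and 3 was 3.54, 4.54 and 3.84.

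The next 3 SNPs had intervals that overlapped one another, and that of the last of them, rs50990432, also overlapped that of rs38362016 below. At rs26888769 the G allele held 69.8%, 70.4% and 72.5% of muscle reads and 56.2%, 55.2% and 59.4% of liver reads (1.89-fold, 1.76 to 2.03). Both tissues favoured G, and muscle did so more strongly. At rs13460373 the T allele held 56.3%, 57.4% and 52.2% of muscle reads and 40.1%, 38.7% and 42.1% of liver reads (1.83-fold, 1.63 to 2.06), so that the more abundant allele changed between the tissues.

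The third of them was rs50990432, whose C allele held 69.9%, 63.6% and 70.0% of muscle reads and 54.6%, 55.7% and 47.3% of liver reads (1.78-fold, 1.5 to 2.12). C held more of the reads than T in muscle in each run and in liver in runs 1 and 2. The gDNA reads themselves favoured C (1.62-fold), and relative to gDNA the liver ratio was shifted towards T (1.39-fold). The muscle amplicon of rs50990432 was the shallowest of all, with 653 reads. The quasi-binomial model did not call the difference between the tissues (adjusted p = 0.0742). The fold within runs was 1.92, 1.39 and 2.59.

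At rs38362016 the C allele held 47.9%, 53.0% and 53.3% of muscle reads and 41.3%, 42.3% and 43.9% of liver reads (1.48-fold, 1.37 to 1.59). Smaller differences were called at rs27858423 (C over T, 1.35-fold), rs48781035 (G over A, 1.35-fold), rs32130254 (G over A, 1.25-fold), rs36610938 (C over G, 1.23-fold) and rs36819047 (C over T, 1.21-fold). In each bracket the base named first is the one relatively higher in muscle. At rs36610938 neither the quasi-binomial model (adjusted p = 0.0651) nor extra variance between amplicons (adjusted p = 0.0504) called the difference, and at rs36819047 extra variance ended the call (adjusted p = 0.0711).

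**Figure D3:**
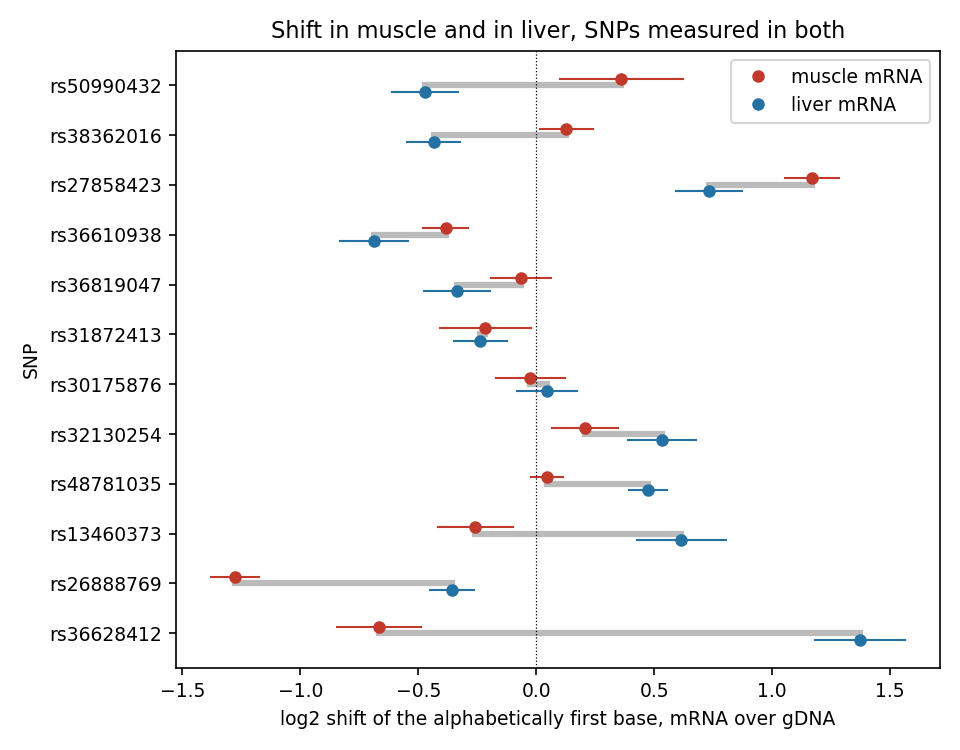
Shift of the alphabetically first base relative to gDNA (x axis, log2 scale) in muscle mRNA (red) and liver mRNA (blue) at the 12 SNPs read in both tissues (y axis), with 95% counting intervals; both shifts of a SNP use the same gDNA reads. Grey bars join the tissues of a SNP, and at rs36628412, rs13460373, rs38362016 and rs50990432 the points lie on opposite sides of 0.

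Muscle and liver of a SNP share its gDNA reads, so their shifts are set side by side without a test of likeness. Of the 12 SNPs, 9 were called against gDNA in both tissues. The same base was favoured at 5 of the 12, rs26888769, rs27858423, rs31872413, rs32130254 and rs36610938, beside 17 of all 50 SNPs read in both tissues (34%). Opposite bases were favoured at 4 of the 12, rs36628412, rs13460373, rs38362016 and rs50990432, beside 10 of all 50 (20%). At rs36819047 and rs48781035 the shift passed in liver and not in muscle, and the test between tissues passed at both.

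The tissue that shifted further from gDNA was not always the same. At rs26888769 and rs27858423 the muscle shift was the larger, by 1.89-fold and 1.35-fold. At rs32130254 and rs36610938 the liver shift was the larger, by 1.25-fold and 1.23-fold. At rs31872413 the C allele held 52.1%, 48.3% and 53.8% of muscle reads and 51.0%, 52.8% and 49.5% of liver reads. Its shifts towards C were 1.16-fold in muscle and 1.18-fold in liver. The tissues differed by 1.01-fold with an interval of 0.889 to 1.16. Both shifts of rs31872413 were measured from gDNA skewed towards A: set against 1:1, C over A was 0.0470 on the log2 scale in muscle and 0.0679 in liver, and neither passed (adjusted p = 0.637 and 0.105 by the exact test).

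The opposite shifts differed in how firmly they stood. Those of rs36628412 were called without any single run and with extra variance between amplicons. At rs38362016 the C allele held 47.8%, 52.9% and 48.1% of gDNA reads, a range that the muscle runs overlapped. The muscle shift of rs38362016 was 1.005-fold, 1.004-fold and 1.23-fold within runs 1 to 3. Without run 3 it was 0.05 on the log2 scale (adjusted p = 0.607 by Fisher's exact test). At rs50990432 the liver shift towards T was measured from a gDNA ratio skewed towards C, and set against 1:1 the liver reads favoured C instead (-0.22 on the log2 scale for T over C). Without run 1 the count of same-base shifts was 3 (rs26888769, rs27858423 and rs36610938). Without run 1 the count of opposite shifts was 1, without run 3 it was 2, and with the quasi-binomial model it was 0 after adjustment and 1, rs36628412, at an unadjusted p under 0.05.

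The called tissue differences were then sorted by the kind of base. Of the 9 called SNPs that set a G or C base against an A or T base, 8 had the G or C base relatively higher in muscle than in liver, the exception being rs13460373. Over all crosses this held for 62.1% of 29 such SNPs, and for 10 of 20 outside this cross. By pools, it held for 7 of 7 SNPs with muscle in pool 3 and liver in pool 4, and for 1 of 2 with muscle in pool 4 and liver in pool 2; outside this cross these layouts gave 4 of 9 and 6 of 11. On the log2 scale the median difference of the G or C base over the A or T base, muscle over liver, was 0.43 over 11 SNPs of this cross and -0.01 over 35 SNPs of the others. Against gDNA, the G or C base was the favoured one at 8 of 12 called SNPs in muscle (47.6% over all crosses) and at 5 of 13 in liver (47.4%). In gDNA itself 1 of 4 called departures was towards the G or C base (36.8% over all crosses). This pattern was noticed in the data, and no test of it was made.

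**Figure D4:**
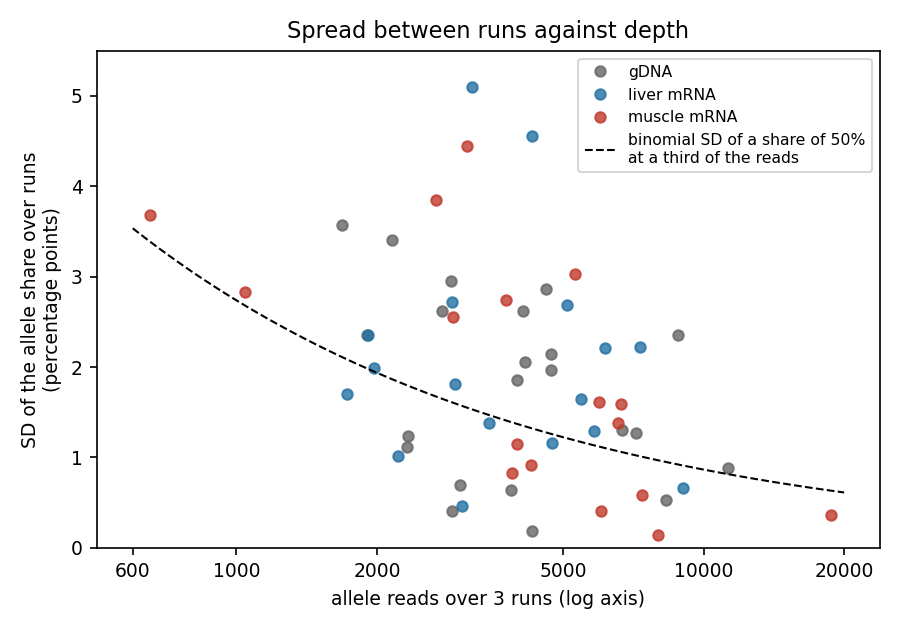
SD of an amplicon's allele share over its 3 runs (y axis, percentage points) against its allele reads summed over runs (x axis, log axis) for the 56 amplicons, coloured by template. The dashed line is the SD that counting alone gives for an even share, and the highest points are the liver amplicons of rs49610656 (5.10) and rs50990432 (4.56) and the muscle amplicon of rs30175876 (4.44).

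The runs of an amplicon differed more than counting alone gives. Over the 56 amplicons the median SD of a share between runs was 1.76 percentage points, against a median of 1.38 expected from counting. The chi-square statistic between runs, which is 1 per degree of freedom where counting is the only error, was 2.07 per degree of freedom over these amplicons and 1.62 over the 172 of the other crosses. By the chi-square test with a permutation p, 4 of the 56 differed between runs after adjustment (3.51% of all 228 did). They were the liver amplicons of rs49610656 and rs50990432, the muscle amplicon of rs30175876 and the gDNA amplicon of rs36610938, each with an adjusted p of 0.0261 in this permutation test.

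At rs30175876 the A allele held 47.0%, 54.8% and 47.1% of muscle reads, 50.2%, 50.1% and 49.4% of gDNA reads and 52.0%, 50.6% and 47.7% of liver reads. Run 2 of muscle stood apart from runs 1 and 3. Summed over runs the SNP passed in no comparison, with 1.02-fold for muscle over gDNA (0.919 to 1.13), 1.03-fold for liver over gDNA (0.946 to 1.13) and 1.05-fold for muscle over liver (0.965 to 1.15). Without run 2 the tissues differed at this SNP (0.22 on the log2 scale for G over A, adjusted p = 0.00878 by Fisher's exact test).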

How the data were processed

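Amplicons from gDNA, muscle cDNA and liver cDNA were pooled and pyrosequenced (454) in 3 runs of 4 pools, 12 files in all, per the labels' protocols. Per the file headers, each deposited file lists raw read counts for both alleles of every amplicon in 1 run. How reads were assigned and filtered, and the genome build, are not stated in the labels. Alleles were matched between files by base, and counts were summed over runs. Tests used Python 3.11.15, SciPy 1.17.1 and statsmodels 0.14.6. A minimum of 20 reads per template was set, which each SNP of the cross passed. Ratios had 0.5 added to each count, and 95% intervals were taken from its standard error on the log scale. PCR reads carry no molecular identifiers. Run differences used 9999 resamples, and extra variance an SD of 0.0759 between gDNA log2 ratios. The quasi-binomial dispersion was not let below 1. Tests were tried on data simulated with counting error alone, which cannot show how they behave under the spread between runs seen here. Alternatives also included a test stratified by run, other read minima, no added count, a required 1.5-fold and mRNA against 1:1.

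Run values are printed for the 5 largest shifts per comparison that passed with 1 sign in all runs, opposite shifts, the 3 deepest SNPs that did not pass, the 3 largest gDNA departures and amplicons whose runs differed. Run values of rs39724342 are added, chosen after they were seen. The cross, tests and this rule were chosen with earlier results of these data known. Strain origin of alleles, genes and positions were not analysed here.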

Additional observations from a re-analysis of the deposited data

Results flagged for a closer look

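At 10 SNPs the muscle shift and the liver shift differed from each other when both tissues were tested directly (two-sided Fisher's exact test with Benjamini-Hochberg adjustment). The values are log2 differences, muscle minus liver. For rs36628412 the difference was 2.04 towards G. For rs26888769 it was 0.92 towards G, and for rs13460373 it was 0.87 towards T. It was 0.83 for rs50990432 and 0.56 for rs38362016, both towards C. Smaller values were 0.44 for rs27858423 (towards C), 0.43 for rs48781035 (towards G), 0.32 for rs32130254 (towards G), 0.30 for rs36610938 (towards C) and 0.27 for rs36819047 (towards C). Among SNPs of this cross with muscle in pool 3 and liver in pool 4, 8 of 9 were called. With muscle in pool 4 and liver in pool 2, it was 2 of 3. Over all crosses 62% of the 50 SNPs read in both tissues were called, and this share was not broken down by pool.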

How the results depend on the processing

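With calls at a required 1.5-fold, counts fell to 3 in muscle, 5 in liver, 4 between tissues and 1 in gDNA. The quasi-binomial model gave 5 calls in muscle, 2 same-base and 0 opposite SNPs, and extra variance between amplicons 6 in muscle, 2 in gDNA, 3 same-base and 1 opposite. With 1 run left out, counts were 8 to 12 in muscle, 14 to 15 in liver, 10 to 11 between tissues, 4 to 6 in gDNA, 3 to 4 same-base and 1 to 4 opposite. The remaining alternatives kept each of these counts within 1.5 times. A direction changed in 9 of 446 values of single SNPs. Only the values against 1:1 or with 1 run left out could change direction, since the other settings kept the same summed reads. The 446 thus include many values whose direction was fixed. Against 1:1, the log2 ratio was -0.0527 at rs31663199 in muscle (C over T) and -0.22 at rs50990432 in liver (T over C). With 1 run left out, SNPs that did not pass changed sign: rs30175876 ranged from -0.0491 to 0.16 in muscle (G over A, -0.0471 without run 3), from -0.0136 to 0.0755 in liver (A over G) and from -0.0626 to 0.22 between tissues (G over A). Likewise rs31663199 ranged from -0.0174 to 0.0243 in muscle (C over T), rs49610656 from -0.0371 to 0.15 in liver (T over C) and rs31872413 from -0.14 to 0.10 between tissues (A over C). The causes were not tested.

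A replicate block by run number (Cochran-Mantel-Haenszel test) gave 11 calls in muscle, losing rs31872413 and rs38362016, and 15 in liver, 10 between tissues, 4 same-base and 3 opposite. Run numbers were not taken to pair the samples, since same-numbered runs deviated together in some cases only: the correlations of their deviations over SNPs of all crosses ran from -0.337 (run 2 of muscle and liver) to 0.425 (run 1 of muscle and liver), and 4 of 9 runs correlated best with their own number. At the shallowest amplicon, muscle rs50990432, depth limits the share to an interval of 63.8% to 71.0% (Wilson, 95%).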
